A study of Homo sapiens with 4 samples.

Results

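A set of 50 genes of the DNA damage response and of DNA repair was followed through the transcripts bound by YTHDF1, a protein of the cytoplasm that reads the RNA mark N6-methyladenosine (m6A). The genes were taken by name, as the inhibitors of p53, the genes of double-strand break signalling and repair, and the genes of mismatch repair, excision repair and the Fanconi anaemia pathway. A gene was called listed when the deposited table of annotated peaks held at least 1 window under its symbol. By this rule 22 of the 50 genes were listed, with 95 windows among the 26819 distinct windows and 7550 genes of the table. RNA immunoprecipitation sequencing (RIP-seq), in which RNA pulled down with a protein is sequenced next to the input RNA, was performed in SNU638, an established human gastric cancer cell line. The series held 2 IP-YTHDF1 libraries and 2 Input libraries. All 4 came from cells that overexpressed YTHDF1 with a FLAG tag, were kept without serum for 24 h and then received interferon-γ (IFN-γ) at 10 ng/ml for another 24 h. The antibody was directed against the tag, so the pulled-down protein was the overexpressed one. No library of untreated cells, of cells without the overexpressed protein or of cells given a DNA-damaging agent was part of the series, so the values describe transcripts bound under IFN-γ and no response to damage.

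Cells meet each kind of DNA lesion with its own set of proteins. Double-strand breaks are signalled by the kinases ATM and ATR and sealed either by homologous recombination, which copies the sister chromatid, or by end joining, which ligates the ends directly. Mismatch repair corrects errors of replication, base and nucleotide excision repair cut out damaged bases or stretches of a strand, and the Fanconi anaemia proteins unhook crosslinks between the strands. Repair meets the cell cycle at p53, whose level is held down by MDM2 and its relative MDM4.

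Each window was 50 bp long and carried a single score of signal, a p-value and a q-value. The study describes its protein-coding peaks as a union over the replicates, so a listed window may rest on a single replicate. The scale of this signal value is not stated, and it was read as an order of strength and not as a fold. No value belonged to a single library, so the spread between replicates is unknown and no difference between genes or classes was tested. The table gives no expression level. For a gene without a listed window, a low transcript level and weak binding therefore cannot be told apart, and the identity of the cells could not be checked against marker genes. All positions are in GRCh38, counted from 1.

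Sequences are shown here for strong windows of a pair of repair genes. Sequence could be read for the strongest windows of MSH6 and ERCC4 among the genes described in full below, because RefSeq promoter sequences (GRCh38.p14) happened to cover them. The MSH6 stretch lies at chr2:47783352-47783480 on the plus strand and the ERCC4 stretch at chr16:13920208-13920307 on the plus strand. The ERCC4 stretch was read as the reverse complement of a promoter of LOC124903647 on the minus strand, and all 3 listed windows of ERCC4 also lie inside the RefSeq interval of the non-coding gene LOC105371093. Both are given 5′ to 3′ on the strand of the transcript, and the capitals mark the window with the strongest signal value, 2.80 in MSH6 and 2.65 in ERCC4.
MSH6: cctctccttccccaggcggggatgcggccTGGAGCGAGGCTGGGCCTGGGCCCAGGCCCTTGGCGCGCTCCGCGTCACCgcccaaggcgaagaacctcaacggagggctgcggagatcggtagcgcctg
ERCC4: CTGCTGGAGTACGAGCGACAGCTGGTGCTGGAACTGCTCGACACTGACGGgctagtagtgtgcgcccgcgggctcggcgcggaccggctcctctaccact
The m6A consensus DRACH (A, G or T, then A or G, then AC, then A, C or T) and the narrower GGAC and GGACT were searched on both strands. DRACH occurred once in the 129 bases of MSH6, on the transcript strand from base 92, outside the capitals. It occurred at 2 places in the 100 bases of ERCC4, on the transcript strand from base 31, inside the capitals, and from base 81, outside them. It did not occur on the other strand of either stretch. Among 35116 RefSeq promoters, 84.6% held DRACH on the sense strand in a stretch of the same length and place as that of MSH6. For ERCC4 the place was that within the LOC124903647 promoter, and each promoter was read on its antisense strand, as ERCC4 had been. There 76.8% held DRACH. GGAC did not occur on either strand of MSH6 and occurred once in ERCC4, at the DRACH match from base 81. It was held by 37.6% of promoters on the sense strand (for MSH6) and 31.9% on the antisense strand (for ERCC4). GGACT, which contains GGAC and is itself a form of DRACH, occurred in neither stretch on either strand, against 11.6% and 9.39% on those same promoter strands. Such a count describes these letters in these windows and says nothing of methylation, which was not measured.

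The listed genes made up 44.0% of the 50. Over all 20056 RefSeq coding genes, the share with at least 1 window was 31.8%. By class, 5 of 9 Fanconi anaemia genes (55.6%), 6 of 13 excision repair genes (46.2%), 9 of 22 double-strand break genes (40.9%), 1 of 4 mismatch repair genes (25%) and 1 of the 2 p53 inhibitors were listed. Some genes act in more than 1 class. With BRCA1, BRCA2, PALB2, BRIP1, XRCC2 and ERCC4 counted among the Fanconi anaemia genes, 9 of 15 of these (60.0%), 6 of 17 double-strand break genes (35.3%) and 5 of 12 excision repair genes (41.7%) were listed. The order of these classes by share was the same in both counts. Genes with a window covered longer stretches of the genome over all coding genes, with a median RefSeq interval of 31231.5 bp against 24092.5 bp for all. In the repair set the listed genes had the shorter median interval, 40330.5 bp against 55041 bp for the 28 without a window.

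**Figure D1:**
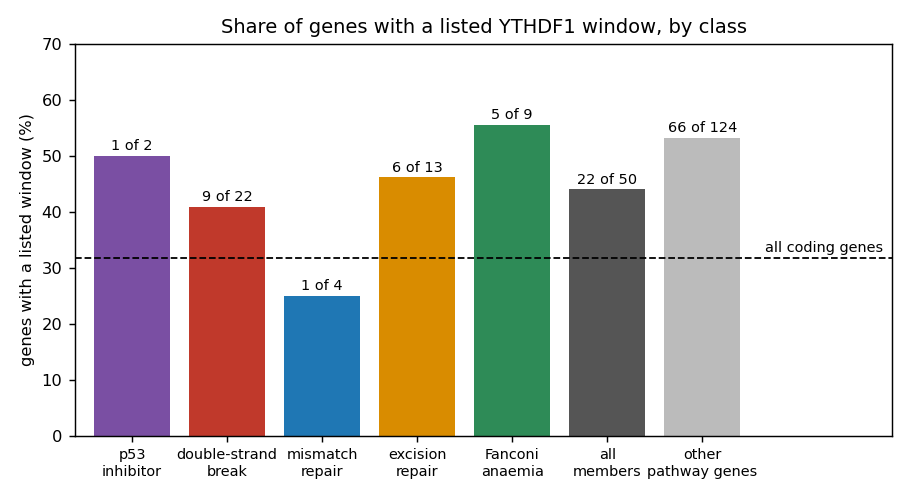
Share of genes with at least 1 listed window (y axis, %) in each class of repair genes, in all 50 genes and in 124 other genes of the same pathways, with the number listed above each bar. The dashed line marks 31.8% of all RefSeq coding genes, and every bar but that of mismatch repair (25%) ends above it.

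The 28 genes without a window included the central kinases and several core repair enzymes. Of the damage signalling kinases, ATM, ATR, CHEK1 and CHEK2 had none. In homologous recombination, the strand-exchange mediator BRCA2, the BRCA1 partner BARD1, all of the MRE11, RAD50 and NBN complex, RAD52, XRCC2 and XRCC3 had none, and in end joining XRCC4 had none. MSH3, MLH3 and PMS2 were missing from mismatch repair, XRCC1, PARP1 and PARP2 from the repair of single-strand breaks, and ERCC1, ERCC2, ERCC6 and XPA from nucleotide excision repair. MDM4 and the Fanconi anaemia genes FANCC, FANCD2, FANCG and FANCL completed the group. PMS2 has a near-identical transcribed pseudogene, PMS2CL, under which 5 windows on chromosome 7 were listed with signal values from 1.85 to 2.78. Reads that fit both genes may have been assigned to either, so the absence of PMS2 is uncertain.

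In strength the listed repair genes stood close to coding genes at large. Their strongest windows had a median signal value of 2.365, with the middle of the genes between 1.93 and 2.52, against 2.23 and 1.94 to 2.56 over 6679 listed coding genes. The 95 windows ranged from 1.05 to 3.08 with a median of 1.84, against 1.83 over 24754 windows of coding genes. A strongest signal value of at least 2 was reached by 15 of the 22 genes (68.2%), against 69.5% of coding genes. A q-value of at most 0.001 was reached by 17 of 22, against 66.8%. The median number of windows was 3 in both. No gene of the table had over 9 windows, so a gene with 9 may have had more. MDM2, MSH6, LIG3 and TP53BP1 had 9 (18.2% of listed repair genes, against 12.8% of coding genes), and BRIP1, MDC1, LIG4 and XRCC6 had a single one, 4 of 22 against 29.0%.

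**Figure D2:**
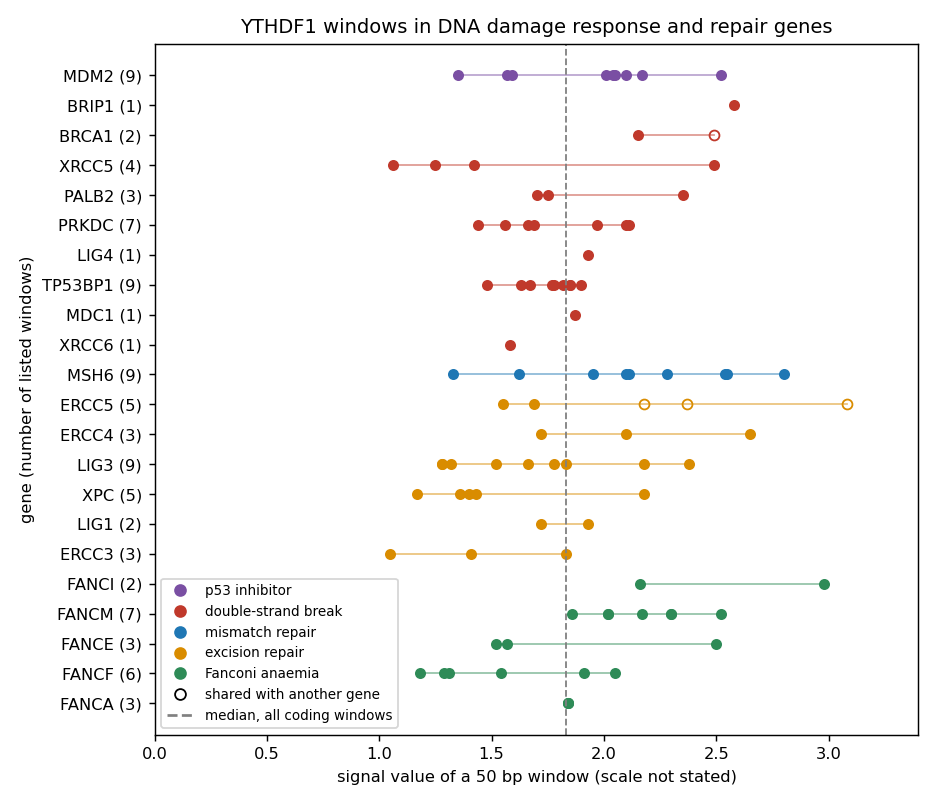
Signal value of every listed window (x axis, score as deposited, linear scale) for the 22 listed genes, coloured by class, with the number of windows beside each symbol, open circles for windows shared with another gene of the same strand and a dashed line at the median of coding windows, 1.83. ERCC5 holds the strongest window at 3.08 and XRCC6, at 1.58, the lowest of the strongest windows.

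MDM2, the ubiquitin ligase that marks p53 for degradation, was densely covered at its 5′ end. Of its 9 windows on the plus strand of chromosome 12, 6 joined into a stretch of 300 bp at 68808178-68808477 that began 6 bp inside the outermost RefSeq start. Their signal values were 2.10, 2.04, 2.01, 2.17, 2.52 and 2.05 from the 5′ side on. The window with the highest value, at 68808378-68808427, had a q-value of 5.58e-12. The other windows lay 8706, 27706 and 32206 bp into the gene and were weaker, at 1.59 (q = 0.00051), 1.57 (q = 0.000275) and 1.35 (q = 0.03865). At least 110 windows had been tested in this gene, and the order of its q-values skipped 4 places, as it does when windows that passed are not in the table. MDM4, the relative of MDM2 that binds and blocks p53, had none.

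Among the signalling genes, the listed ones were the chromatin adaptors TP53BP1 and MDC1, 2 of 6 (33.3%, against 31.8% of all coding genes). TP53BP1, which gathers at breaks and favours end joining, had 9 windows on the minus strand of chromosome 15 between 43413162 and 43492411, at even and low signal values from 1.48 to 1.90. They lay 18229 to 97429 bp from the 5′ end, and 5 of them crowded toward the 3′ end, between 43413162 and 43416411. MDC1, which binds the phosphorylated histone around a break, had 1 of 61 tested windows listed, at 30713008-30713057 on chromosome 6, at 1.87 (q = 0.0063). The RefSeq interval of its antisense transcript MDC1-AS1 also covers this position.

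In homologous recombination 3 of 11 genes were listed, BRIP1, PALB2 and BRCA1 (27.3%, against 31.8% of all coding genes). BRIP1, a helicase that binds BRCA1, had the strongest window of the double-strand break class. It lay at 61863417-61863466 on the minus strand of chromosome 17, 62 bp from the 5′ end of a gene of 184390 bp, at 2.58 (q = 6.59e-06), and was 1 of 15 tested. PALB2, the bridge from BRCA1 to BRCA2, had 3 of 42 tested windows listed, a pair of them touching, 100 and 50 bp from its 5′ end, at 2.35 (q = 1.1e-05) and 1.75 (q = 0.04267), and another 18250 bp into the gene at 1.70 (q = 0.04023). BRCA1, the ubiquitin ligase at the head of the pathway, had 2 of 88. The window at 43045696-43045745, 1401 bp from the 3′ end, stood at 2.15 (q = 0.000623). The stronger window, at 43167046-43167095 at 2.49 (q = 1.51e-06), lay 3232 bp from the outermost RefSeq start and upstream of the other start, at 43125364. It overlaps a listed window of the non-coding transcript AC060780.1 on the same strand, at 2.55 (q = 2.02e-06). Without it, the strongest value of BRCA1 was 2.15.

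End joining had 4 of 5 genes listed (80.0%, against 31.8% of all coding genes), among them every subunit of the DNA-dependent protein kinase. Of the other genes of end joining and its choice, described further down, 6 of 12 were listed. These differences were not tested, and the share of 80.0% rests on 5 genes. XRCC5, the larger Ku subunit that grips broken ends, had 4 of 27 tested windows listed on the plus strand of chromosome 2. The strongest, at 216113065-216113114, stood at 2.49 (q = 1.09e-06), and the others lay further downstream at 1.06 (q = 0.01007), 1.25 (q = 0.007018) and 1.42 (q = 0.000154). Its partner XRCC6 had 1 of 29, at 41637670-41637719 on chromosome 22, at 1.58 (q = 0.00128). PRKDC, the catalytic subunit, had 7 of 124 at signal values from 1.44 to 2.11, with the strongest 28 bp from its 5′ end (q = 5.13e-07), another touching it at 1.97 and the remaining 5 spread along the gene. LIG4, the ligase that seals the ends, had 1 of 26, at 108214640-108214689 on chromosome 13, at 1.93 (q = 0.01565). That window lay 3660 bp from the outermost start and 93 bp from the nearest RefSeq start. The Ku subunits and LIG4 thus had their strongest windows inside the gene, away from the outermost 5′ end, and PRKDC at it.

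MSH6, a protein that recognises mismatches, was the mismatch repair gene with windows, and its 9 windows on the plus strand of chromosome 2 formed separate groups. The first group of 5 lay between 36 and 286 bp from the 5′ end, with signal values of 2.28 (q = 2.41e-05), 2.55 (q = 2.46e-08), 2.10 (q = 1.99e-06), 2.80 (q = 6.11e-12) and 2.11 (q = 0.000133). The printed sequence holds the last of these, the strongest before it and the 3′ part of the window at 2.10. A second group at 47790981-47791080 had 1.33 (q = 0.01326) and 1.62 (q = 0.000778), and the last at 47795931-47796030 had 1.95 (q = 1.03e-06) and 2.54 (q = 3.3e-10). In its listed windows MSH6 was thus strong at its start and again about midway along its interval of 26957 bp. The order of its q-values skipped 1 place, so a window that passed may be missing here, as in MDM2. Its strongest value was above that of 85.5% of listed coding genes.

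In base excision and single-strand break repair 2 of 5 genes were listed (40.0%, against 31.8% of all coding genes), both DNA ligases. LIG3, the ligase that works with XRCC1, had 9 windows on chromosome 17, and 8 of them joined into 1 stretch of 400 bp at 34983063-34983462, the longest of any repair gene. Their signal values ran from 1.28 to 2.38, with the strongest at 34983263-34983312 (q = 2.8e-11), 2751 bp from the 5′ end. The order of the q-values of LIG3 skipped 3 places, so windows that passed may be missing here as well. LIG1, the ligase of replication, had 2 of 25, at 1.93 (q = 0.01478) 32749 bp into the gene and at 1.72 (q = 0.04901) over its outermost start.

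In nucleotide excision repair 4 of 8 genes were listed (50%, against 31.8% of all coding genes). Each had at least 1 window within 500 bp of its 5′ end, against 44.0% of 6281 coding genes. In XPC this was 1 window at 1.43, and in ERCC5 the windows there are among the shared ones described below. ERCC5, the nuclease that cuts on the 3′ side of the lesion, held the strongest window of the whole set. It lay at 102846247-102846296 on the plus strand of chromosome 13, 215 bp from the 5′ end, at 3.08 (q = 1.83e-14), above 93.1% of listed coding genes. Its other windows, of 55 tested, began at 102846197 with 2.18 (q = 0.000334), 102852197 with 1.55 (q = 0.008611), 102853797 with 2.37 (q = 5.78e-06) and 102865797 with 1.69 (q = 0.01724). ERCC5 shares its exons with the read-through gene BIVM-ERCC5, and 3 of the 5 windows overlap windows of that gene, which had signal values of 2.27, 2.72 and 1.98. Without the shared windows the strongest value of ERCC5 was 1.69.

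ERCC4, the nuclease that cuts on the 5′ side, had 3 of 21 tested windows listed, beginning 54, 104 and 1954 bp from its 5′ end. Their signal values fell in that order, at 2.65 (q = 1.54e-07), 2.10 (q = 0.000838) and 1.72 (q = 0.02797), and the first and second are the windows in the printed sequence. XPC, the damage sensor, had 5 of 40 at 1.17 to 2.18. Its strongest, at 14158598-14158647 on chromosome 3 (q = 4.5e-05), lay 19954 bp into the gene, in a cluster of 4, and its first window overlaps a listed window of the opposite-strand transcript AC093495.1, at 1.91. ERCC3, a helicase of the general transcription factor TFIIH, had 3 of 39 at 1.05, 1.41 and 1.83, the last (q = 0.000206) 454 bp from its 5′ end.

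The Fanconi anaemia genes had the highest median among the classes with more than 1 listed gene, 2.50 for the strongest window, against 2.28 in excision repair and 2.11 in double-strand break repair. The ranges overlapped widely, at 1.84 to 2.98, 1.83 to 3.08 and 1.58 to 2.58, and the difference was not tested. Among other genes of the same pathways, described further down, the order was another one: the median of the Fanconi and crosslink genes was 2.13, under homologous recombination (2.405), nucleotide excision (2.39), end joining (2.385), base excision (2.315) and damage signalling (2.275). FANCI, a part of the clamp that closes around DNA at a crosslink, had 2 of 20 tested windows listed on chromosome 15, at 89245350-89245399 with 2.16 (q = 0.000601) and at 89291650-89291699 with 2.98 (q = 3.6e-10). The stronger lay 47671 bp into the gene and was above 91.1% of listed coding genes. FANCD2, the other part of that clamp, had none.

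FANCM, the translocase that recognises stalled forks, had 7 of 26 tested windows listed on the plus strand of chromosome 14, of which 6 lay within 500 bp of its 5′ end. In order of position the signal values were 2.30 (q = 8.64e-05), 1.86 (q = 0.006459), 2.52 (q = 5.78e-07), 2.02 (q = 0.001334), 2.17 (q = 9.68e-05), 2.02 (q = 0.002661) and 2.30 (q = 8.01e-05). The lowest and the highest lay in the first 3 windows. Of the core complex that attaches ubiquitin to the clamp, FANCE had 3 of 17 at 1.52, 1.57 and 2.50 within 200 bp of each other, the strongest at 35456107-35456156 on chromosome 6 (q = 6.36e-06). FANCF, a gene of 3291 bp and the shortest of the 50, had 6 of 35 at 1.18 to 2.05, all within 1000 bp of its 5′ end. FANCA had 3 of 85, all at 1.84, with q-values of 0.03316, 0.03316 and 0.03611.

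The number of windows tested in a gene differed widely, so the share of tested windows that were listed was compared in genes with 8 or fewer. In the 18 repair genes of this kind a median of 7.85% of tested windows was listed, against 8.33% over 5799 coding genes, with a median of 32 windows tested in both. FANCM had the highest share in the set, 26.9%, above 95.8% of those coding genes, and MDC1 the lowest, 1.64%. The median was 17.1% in the 5 Fanconi anaemia genes, with a range of 3.53% to 26.9%. It was 9.09% in 5 excision repair genes (7.69% to 14.3%) and 4.75% in 8 double-strand break genes (1.64% to 14.8%). In BRCA1 the share was 2.27%, with 1 of its 2 windows shared with AC060780.1. The other listed genes that the second count placed with the Fanconi anaemia genes were PALB2 (7.14%), BRIP1 (6.67%) and ERCC4 (14.3%). Like BRCA1, they stood under the Fanconi anaemia median of 17.1%, which thus depends on the assignment to classes.

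**Figure D3:**
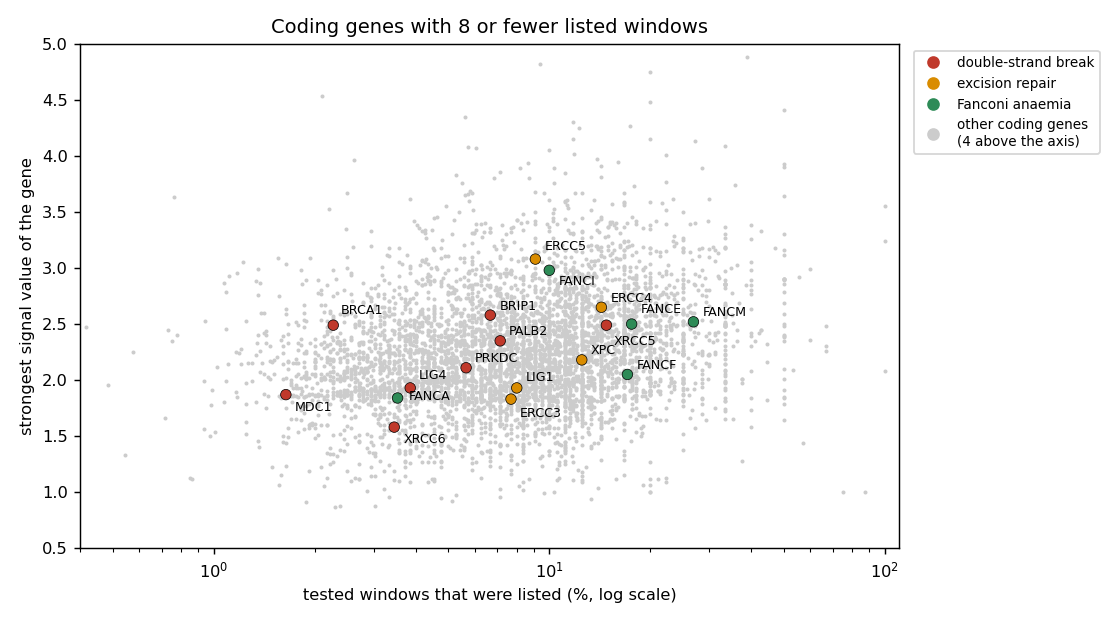
Share of the tested windows of a gene that were listed (x axis, %, log scale) against the strongest signal value of the gene (y axis, score as deposited), for coding genes with 8 or fewer windows (grey, with 4 genes above the axis) and 18 repair genes coloured by class. Repair genes lie within the grey cloud, with FANCM furthest right at 26.9% and ERCC5 highest at 3.08.

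The place of the windows along the gene was set against the 5′ end of the RefSeq interval. The strongest window lay within 500 bp of that end in 10 of the 22 genes (45.5%), against 31.4% of 6233 coding genes. These were MDM2, BRIP1, PALB2, PRKDC, MSH6, ERCC3, ERCC4, ERCC5, FANCM and FANCF. In ERCC5 this window is shared with BIVM-ERCC5, and without shared windows its strongest lay 19765 bp from the 5′ end. Any window within 500 bp was found in 13 of 22 genes (59.1%), against 44.0% of 6281 coding genes, with XPC, LIG1 and FANCA in addition. Of all windows, 33 of 95 (34.7%) lay there, against 24.8% in coding genes. In none of the 22 did the strongest window lie within 500 bp of the 3′ end, against 3.24% of coding genes. The median distance of the strongest window was 2991.5 bp from the 5′ end and 28629.5 bp from the 3′ end, against 3851 and 16600 bp in coding genes. Distances run along the genome, introns included, and whether a window lay in an untranslated or a coding exon was not analysed here. Windows are numbered by rising position up to 9, so a gene of the plus strand that was cut at 9 loses windows at its 3′ end and one of the minus strand at its 5′ end. Of the genes with 9 windows, MDM2, MSH6 and LIG3 lie on the plus strand and TP53BP1 on the minus strand. The order of q-values skipped places in those of the plus strand and 0 places in TP53BP1. The part of the limit of 9 in the positions of these genes was not tested.

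**Figure D4:**
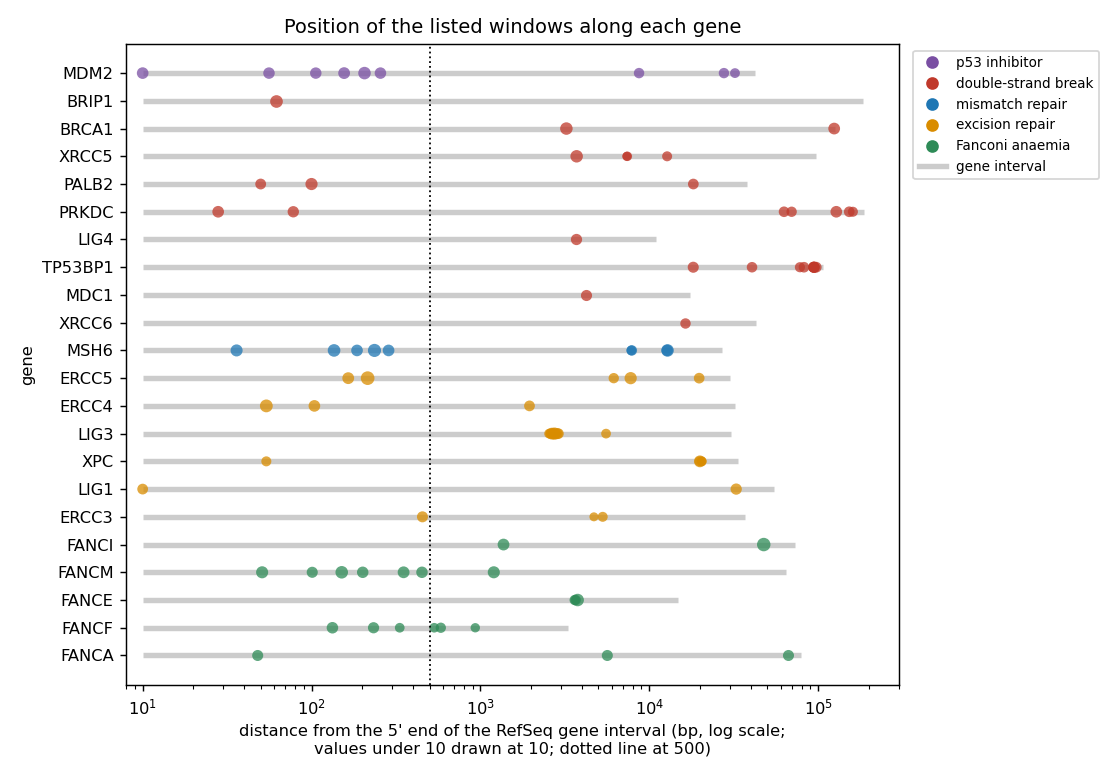
Distance of each listed window from the 5′ end of the RefSeq gene interval (x axis, bp, log scale, values under 10 drawn at 10) for the 22 genes, with larger points for larger signal values, grey bars for the length of the gene and a dotted line at 500 bp. In FANCM and FANCF the windows crowd to the left of or around the line. In MDM2 6 of 9 and in MSH6 5 of 9 lie to its left and the others far beyond it. In TP53BP1, FANCI and LIG3 all windows lie beyond it.

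Of 124 other genes of the same pathways, 66 (53.2%) had a window, against 44.0% of the named set and 31.8% of all coding genes. These differences were not tested. The 66 genes stood at a similar strength, with strongest signal values from 1.20 to 4.15 and a median of 2.26. In damage signalling 14 of 22 were listed, led by BRCC3, a deubiquitinase of the BRCA1 complex, at 4.15, and ETAA1, an activator of ATR, at 3.77. In homologous recombination 12 of 24 were listed, led by the topoisomerase TOP3A at 3.19 and the helicase WRN at 3.07. End joining and its choice had 6 of 12, led by the nuclease DCLRE1C at 3.67 and RIF1, a partner of TP53BP1, at 2.7. In base excision 12 of 21 were listed, led by the glycosylase MBD4 at 2.97 and APTX, which clears failed ligations, at 2.92. Nucleotide excision had 9 of 16, led by RAD23B, the partner of XPC, at 2.79 and the damage sensor subunit DDB1 at 2.50. Fanconi and crosslink genes had 8 of 16, led by the nuclease DCLRE1A at 2.52 and the helicase HELQ at 2.47. Mismatch repair had 3 of 6, led by the sliding clamp PCNA at 2.24, and translesion synthesis and reversal had 2 of 7, POLH at 2.80 and ALKBH2 at 1.37.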

How the data were processed

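Per the labels and methods, RNA from IP-YTHDF1 (2 libraries) and Input (2 libraries) was sequenced with a strand-specific kit after removal of ribosomal RNA. The submitters' processing notes name STAR 2.7.3a and GRCh38; the peak caller and the annotation release are not given in the sources used here. The study describes peaks in coding genes as a union over replicates. The deposited table gives for each 50 bp window a signal value, used as a score, a rank, a p-value and a q-value. All listed q-values are at most 0.05. It has 0 columns of values per library, so library depth is unknown.

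Of 26820 rows, 1 repeated another and was dropped. Symbols were matched to RefSeq (GRCh38.p14), in which 6370 of 6674 coding symbols were found, and 97.3% of the windows of matched coding genes lay inside the RefSeq interval. The quotient of deposited q-value and p-value was whole within 0.5% in 99.5% of 1913 coding genes with 1 window, as when p-values are adjusted within each gene over its tested windows. The number tested was computed from this quotient. Tested on simulated data, it was recovered within 1 in 100% of 1733 genes. Windows that touch on 1 strand of a gene were joined into regions.

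The repair genes, their classes and the lists of other pathway genes were chosen with earlier results of these data known. All listed repair genes were named. Every window was given for the p53 inhibitor, for the strongest pair of genes of each class, ties included, and for genes with 1 window. The strongest pair was named for each list of other genes. Of these, 1 gene is not reported here by name. Counts and medians were set beside those of coding genes and not tested. Alternatives were stricter limits, windows free of overlap with another gene, main chromosomes, joined windows, the mean of windows, longer genes and a second assignment to classes. Values were computed in Python 3.11.15 with NumPy 2.4.6, pandas 2.3.3 and SciPy 1.17.1, and figures drawn with matplotlib 3.10.9.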

Additional observations from a re-analysis of the deposited data

How the results depend on the processing

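No paired analysis was possible because the deposited table holds 1 value per window and none per library, and no library could be left out for the same reason. At a q-value of at most 0.001, 17 repair genes and 48 windows stayed, with a median strongest signal value of 2.49, against 21.2% of coding genes. At a signal value of at least 2, 15 genes and 37 windows stayed, with a median of 2.50, 5 double-strand break genes and 22% of coding genes. A Bonferroni limit over the 310017 windows counted in listed genes left 10 genes (BRCA1, ERCC4, ERCC5, FANCI, FANCM, LIG3, MDM2, MSH6, PRKDC and XRCC5) and 19 windows, with a median of 2.52, 3 double-strand break, 3 excision repair and 2 Fanconi anaemia genes, and 12.5% of coding genes. In BRCA1 and ERCC5 the windows past this limit were ones shared with another gene. Without windows shared with another gene of the same strand all 22 genes and 91 windows stayed, the median was 2.165 and the coding share 30.1%. The mean of windows in place of the strongest gave a median of 1.867. Among coding genes at least as long as the shortest repair gene the share was 34.2%. With genes of more than 1 class counted as Fanconi anaemia genes, 9 of these were listed. Joined windows gave 65 regions, and main chromosomes alone moved none of the 9 counts, medians and shares recomputed.

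The alternatives for position were chosen after the data were seen, and none of them left out windows shared with another gene. The strongest window lay within 250 bp of the 5′ end in 9 genes (coding genes 23.7%), within 1000 bp in 10 (38%), within 500 bp of the nearest RefSeq start in 10 (37.6%) and, among genes with 8 or fewer windows, within 500 bp in 8 (32.1%). For the nearest RefSeq start, PRKDC, XRCC5 and FANCI had no value. PRKDC therefore left that count, and LIG4, at 93 bp, came in. Of single genes, the strongest value moved in BRCA1 and ERCC5 without shared windows and in TP53BP1 at a q-value of at most 0.001, to 1.85. In BRCA1, ERCC5 and TP53BP1 the alternative left out the window with the strongest value. Reasons for the other moves were not tested. Sequencing depth is unknown, and a gene without a window is not shown to be unbound.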
